A study of Mus musculus with 12 samples.

Results

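The cholesterol synthesis genes Hmgcs1, Idi1, Fdft1, Sqle, Cyp51, Dhcr7 and Insig1, which SREBP2 drives, were taken by symbol from the 15759 rows of the normalized-count table. All 7 were found and tested. The libraries came from the whole cortex and whole cerebellum of 12-week-old mice of the C57BL/6J strain, giving 4 groups (2 regions, 2 genotypes) of 3 libraries. SCA1 KI mice, a knock-in model of spinocerebellar ataxia type 1, carried an expanded Atxn1 allele of 154 glutamines beside an allele of 2 (Atxn1 154Q/2Q), expressed from the endogenous gene in every cell that uses it. WT littermates carried no expanded allele. The labels list males for sequencing, whereas the methods of the study combine males and females. Nothing in the labels says which libraries of the 2 regions came from the same animal, and p-values measure the spread between these libraries. The study describes the cerebellar data as a set that the same laboratory had published earlier. Region and dataset therefore cannot be told apart.

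Cells build cholesterol from acetyl-CoA in a mevalonate arm, which ends in isoprenoid units, and a sterol arm, which joins them into squalene and closes and trims the rings. SREBP2, encoded by Srebf2, is a transcription factor held in the endoplasmic reticulum by SCAP and INSIG proteins while sterols are plentiful, and it moves to the nucleus and switches on most genes of the route when sterols fall. The brain makes nearly all of its own cholesterol because lipoproteins do not cross the blood-brain barrier. Oligodendrocytes use it for myelin, and astrocytes make it and export it on ApoE particles to neurons. Insig1 encodes no enzyme, unlike the other genes: it is the sterol-responsive anchor of SCAP and is itself an SREBP target.

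In GENCODE vM21 on GRCm38, all 7 are protein-coding genes. Hmgcs1 (chr13:119690379-119708260) and Idi1 (chr13:8885501-8892451) lie on the plus strand of the same chromosome, and Cyp51 (chr5:4081145-4104746, minus strand) and Insig1 (chr5:28071363-28078662, plus strand) share another. Sqle lies at chr15:59315077-59331192 and Dhcr7 at chr7:143823145-143848410, both on the plus strand, and Fdft1 at chr14:63145150-63179578 on the minus strand. Exons of Hmgcs1 overlap those of the antisense gene Gm48342 (462 aligned bases) and those of Cyp51 overlap Akap9 (166 aligned bases). Whether reads were counted by strand is not given in the sources used here, so reads in these overlaps could belong to either gene.

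The promoters are shown because SREBP2 targets carry a sterol regulatory element (SRE), commonly beside a CCAAT box for the factor NF-Y. RefSeq promoters (GRCm38.p6) were found for 5 of the 7 genes, and Sqle and Fdft1 had no entry. The 180 bases before the RefSeq start are printed for Hmgcs1, Idi1 and Cyp51, the 3 genes that passed the test in the cortex. Capitals mark CCAAT boxes on either strand (ATTGG on the printed strand when reversed) and the closest match to an SRE of 10 bases with at most 2 mismatches. The Hmgcs1 window lay at chr13:119690171-119690350 on the plus strand, the Idi1 window at chr13:8885426-8885605 on the plus strand, and the Cyp51 window at chr5:4104698-4104877 on the minus strand. The RefSeq starts of Idi1 and Cyp51 lie inside the GENCODE genes, so their windows run partly into those genes.
Hmgcs1: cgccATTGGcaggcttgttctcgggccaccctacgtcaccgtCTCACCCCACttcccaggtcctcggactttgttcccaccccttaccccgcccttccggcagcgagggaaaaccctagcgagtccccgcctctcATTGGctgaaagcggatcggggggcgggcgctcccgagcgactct
Idi1: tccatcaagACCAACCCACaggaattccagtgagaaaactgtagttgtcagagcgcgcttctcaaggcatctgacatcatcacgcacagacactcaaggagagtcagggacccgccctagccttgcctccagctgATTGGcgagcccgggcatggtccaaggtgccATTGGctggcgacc
Cyp51: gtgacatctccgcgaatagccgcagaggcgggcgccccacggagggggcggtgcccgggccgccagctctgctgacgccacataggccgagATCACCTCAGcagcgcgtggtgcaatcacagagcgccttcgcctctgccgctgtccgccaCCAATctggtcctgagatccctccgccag

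The Hmgcs1 promoter held CTCACCCCAC at position -138 from the start, 1 mismatch from that SRE. It also held the exact pattern TCACNCCAC, which overlaps it. Searched on both strands, the exact pattern was present in 1.05% of the 32851 promoters of 250 bases, and a match with at most 1 mismatch in 1.65%. The other 4 genes with a promoter had neither. With 2 mismatches allowed, a setting chosen after seeing the data, Idi1 had ACCAACCCAC at position -171 and Cyp51 had ATCACCTCAG at position -89, but 20.0% of all promoters held such a match. CCAAT boxes were found in Hmgcs1, Idi1, Cyp51, Insig1 and 1 of the 3 Dhcr7 promoters, and in 33.8% of all promoters. A match of letters is a description and not a bound site.

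Reads on genes numbered between 34103546 and 39927889 per cortical library and between 29520855 and 51311309 per cerebellar library. Levels are given as normalized counts, which are reads over the size factor of each library, and a log2 fold change (LFC) is a difference of means of log2(normalized count + 1). Genes were called DEGs at an adjusted p (limma, Benjamini-Hochberg over 15369 genes) under 0.05 with an absolute LFC over 0.25. The region labels were borne out by markers: all 7 markers of cortical excitatory neurons were higher in WT cortex, and all 5 of cerebellar granule cells and all 6 of Purkinje cells were higher in WT cerebellum. The libraries of both regions differed in the level of markers of adjoining tissue. In the cerebellum the summed level of 5 choroid plexus markers lay at 18647 to 70571 in WT and 547 to 73727 in SCA1 KI, and that of the 5 measured thalamus and midbrain markers at 2139 to 3255 in WT and 571 to 660 in SCA1 KI. In the cortex 2 of 5 striatal markers were called lower, with sums of 5764 to 13045 in WT and 2578 to 6581 in SCA1 KI, and 1 thalamus and midbrain marker was called higher, with sums of 564 to 781 and 765 to 1444. Whether these marker differences came from dissection or from expression within the region was not tested. The part of these markers in the differences below was not tested either.

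In the cortex of SCA1 KI mice, 3 of the 7 genes fell: Hmgcs1, Idi1 and Cyp51, to 77.8%, 82.5% and 83.5% of the WT mean. Over all tested genes, 10.8% were called lower and 4.82% higher in the cortex. None of the 7 was called higher by limma. The LFC was below 0 in all 7, with a median of -0.26, against a median of -0.00 over all tested genes. In 5 of the 7 genes each SCA1 KI library was below each WT library, where 18.0% of all genes were lower without overlap. The 7 genes were chosen with earlier results of these data known. Counts among them, here and in the cerebellum, are therefore descriptions.

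Hmgcs1, the synthase that makes HMG-CoA for the mevalonate arm, had the largest difference of the 7. Its normalized counts were 13217, 16328 and 15451 in WT cortex and 11654, 11406 and 11930 in SCA1 KI cortex. The 3 SCA1 KI libraries lay close together and below each WT library. The LFC was -0.36 ± 0.08 (SE) with an adjusted p of 0.00902 (limma), and the call held in each fit that left out a library (LFC -0.45 to -0.29).

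Idi1 isomerizes isopentenyl diphosphate to dimethylallyl diphosphate, the unit on which isoprenoid chains start. Normalized counts were 586, 636 and 675 in WT cortex and 523, 501 and 541 in SCA1 KI cortex, without overlap. The LFC was -0.28 ± 0.08 (SE), with an adjusted p of 0.0383 (limma). This call was the least stable: 8 of the 12 fits that left out a library lost it (adjusted p up to 0.113, limma), as did the cortex fitted alone (0.114, limma). Processed pseudogenes align to Idi1, one of them identical over 684 bases, so its reads could be divided between copies.

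Cyp51, the lanosterol demethylase, is the first enzyme after ring closure. Normalized counts were 2999, 3450 and 3184 in WT cortex and 2553, 2735 and 2752 in SCA1 KI cortex. Each SCA1 KI library lay below each WT library, and the LFC was -0.26 ± 0.07 (SE) with an adjusted p of 0.0157 (limma). It was just past the LFC limit, and the call was lost with edgeR (LFC -0.24), with the cortex fitted alone (adjusted p = 0.0742, limma), and without SCA1 KI library A (LFC -0.23) or WT library C (-0.21).

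Insig1 had 2793, 3129 and 3705 normalized counts in WT cortex and 2536, 2433 and 2723 in SCA1 KI cortex. The groups did not overlap, but WT libraries spread widely, and the LFC of -0.32 ± 0.11 (SE) had an adjusted p of 0.0770 (limma). It passed without WT library B (0.0361, limma) or WT cerebellum library 4 (0.0451, limma) and with DESeq2 (0.0413). It also passed with the dependence on transcript length and GC removed (0.0333, limma). A processed pseudogene aligns to Insig1 at 98.9% identity over 189 bases.

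Dhcr7, the reductase that ends one branch of the sterol arm, had 1447, 1309 and 1429 normalized counts in WT cortex and 1133, 1304 and 1300 in SCA1 KI cortex. The nearest libraries were almost level. The LFC was -0.16 ± 0.08 (SE), with an adjusted p of 0.182 (limma). Fdft1, squalene synthase, had 3022, 3223 and 3824 in WT and 3462, 2660 and 2694 in SCA1 KI cortex. Library A of SCA1 KI stood within the WT range, the groups overlapped, and the LFC was -0.20 ± 0.12 (SE) with an adjusted p of 0.299 (limma). Exons of Fdft1 overlap those of Ctsb (774 aligned bases). A processed pseudogene also aligns to Fdft1, at 97.4% identity over 1249 bases.

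Sqle, squalene epoxidase, is the enzyme that follows Fdft1 in the route. Normalized counts were 2507, 2696 and 2821 in WT cortex and 2626, 2594 and 2745 in SCA1 KI cortex. The SCA1 KI libraries all lay within the WT range. Its LFC was -0.01, with a 95% interval from -0.16 to 0.14, and its sign changed with the processing.

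**Figure D1:**
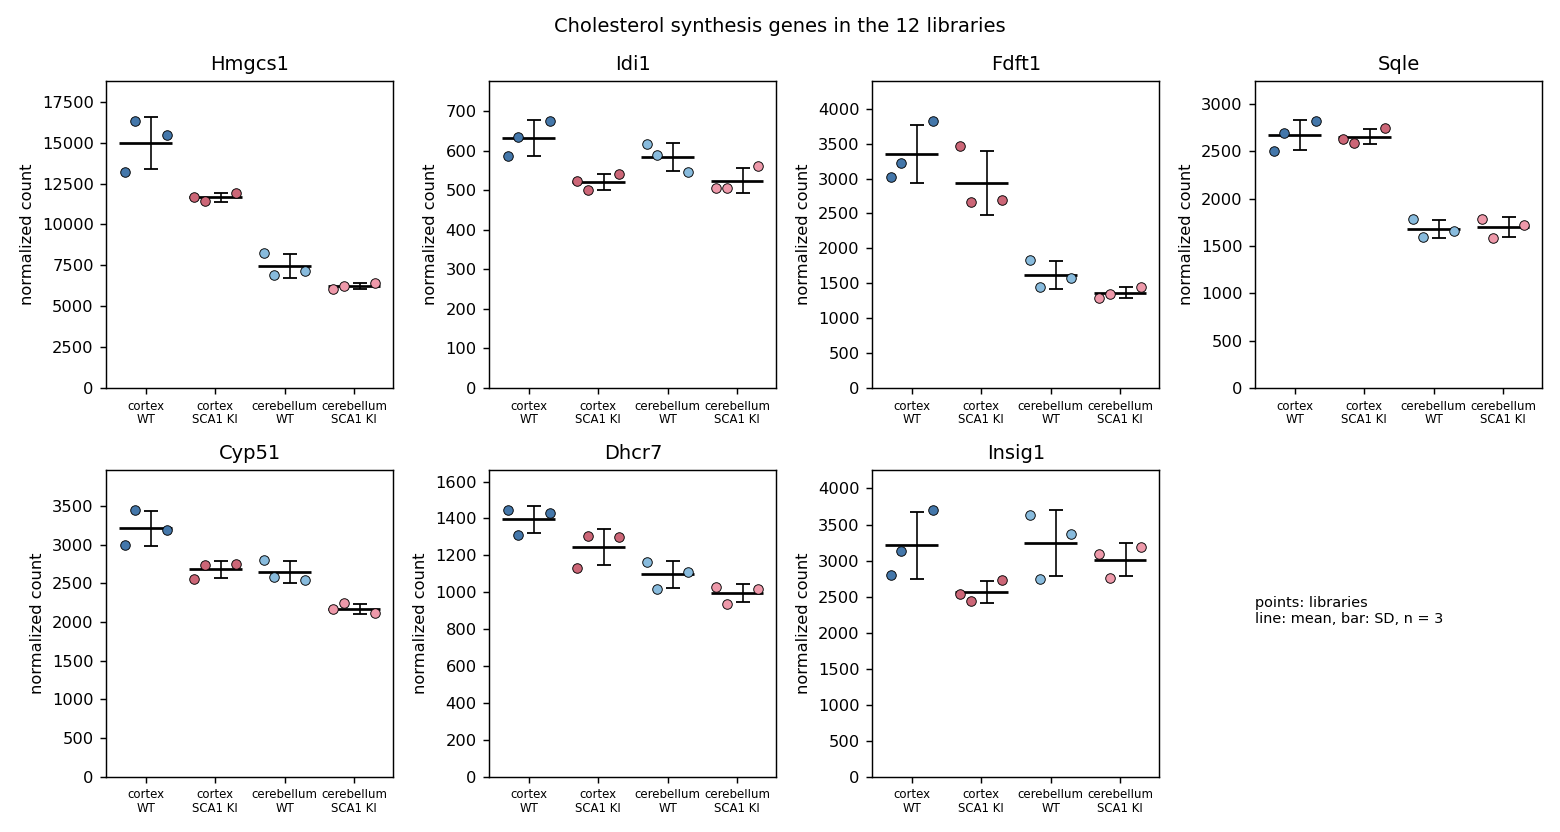
Normalized counts (y axes, from 0) of the 7 genes in 4 groups of 3 libraries; points are libraries, lines are means and bars are SD. Hmgcs1 in SCA1 KI cortex lay between 11406 and 11930, below the 13217 to 16328 of WT, whereas Sqle overlapped between genotypes in both regions.

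In the cerebellum of SCA1 KI mice, 1 of the 7 genes fell, Cyp51, where 4.44% of all tested genes were called lower and 0.917% higher. The LFC was below 0 in 6 of the 7 genes, with a median of -0.16, and none of the 7 was called higher. Libraries did not overlap in 2 of the 7, Hmgcs1 and Cyp51, against 17.5% of all genes lower without overlap.

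Cyp51 had 2804, 2585 and 2545 normalized counts in WT cerebellum and 2163, 2241 and 2112 in SCA1 KI. The SCA1 KI libraries were all below the WT ones. The LFC was -0.28 ± 0.07 (SE), with an adjusted p of 0.0234 (limma), and the mean was 82.1% of WT. The call was lost with the dependence on transcript length and GC removed (LFC -0.22), without WT library 2 (LFC -0.24, adjusted p = 0.0962, limma) and without SCA1 KI library 1, 3 or 5 (adjusted p 0.0940, 0.0576 and 0.103, limma). Removing that dependence also moved the median LFC of all genes in the cerebellum from -0.00486 to 0.0751. A dependence of Cyp51 itself cannot be told apart from that shift.

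Hmgcs1 had 8273, 6932 and 7181 normalized counts in WT cerebellum and 6050, 6236 and 6420 in SCA1 KI. The groups did not overlap. The LFC of -0.26 ± 0.08 (SE) missed the threshold with an adjusted p of 0.101 (limma), and it passed with DESeq2 (0.0430).

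Fdft1 had 1839, 1443 and 1576 normalized counts in WT cerebellum and 1295, 1350 and 1446 in SCA1 KI, with an LFC of -0.24 ± 0.12 (SE). Only the highest SCA1 KI library reached the lowest WT one. Idi1 had 616, 590 and 545 in WT and 506, 505 and 561 in SCA1 KI, overlapping, with an LFC of -0.16 ± 0.08 (SE).

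Dhcr7 (1164, 1020 and 1111 in WT, 1026, 937 and 1018 in SCA1 KI) had an LFC of -0.14 ± 0.08 (SE). Insig1 (3628, 2743 and 3366 in WT, 3084, 2757 and 3192 in SCA1 KI) had an LFC of -0.10 ± 0.11 (SE). Sqle (1786, 1596 and 1656 in WT, 1789, 1581 and 1726 in SCA1 KI) had an LFC of 0.02, with a 95% interval from -0.13 to 0.17. These 3 genes overlapped between genotypes, and neither they nor Fdft1 and Idi1 passed the test (adjusted p 0.328 to 0.948, limma).

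**Figure D2:**
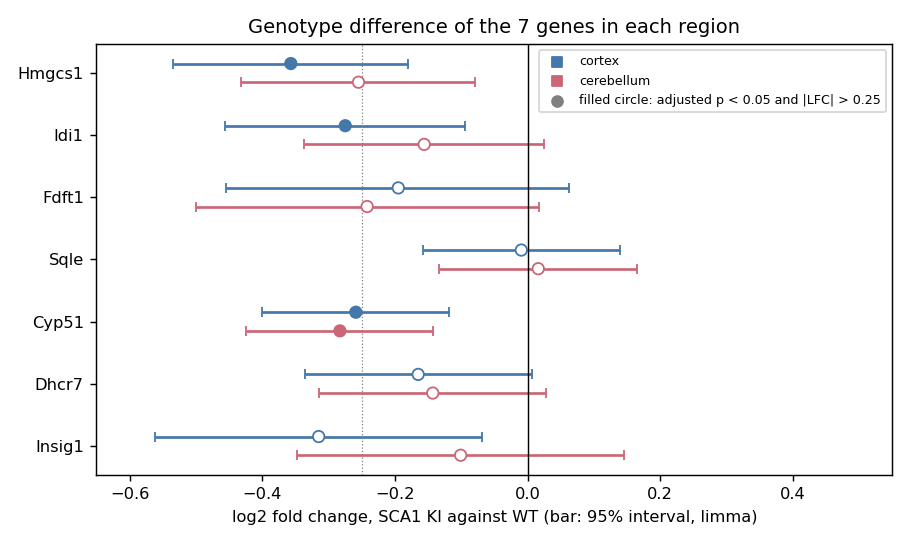
LFC (x axis, log2 scale) of SCA1 KI against WT for the 7 genes in cortex and cerebellum; bars are 95% intervals from limma and filled circles are DEGs. Hmgcs1, Idi1 and Cyp51 were DEGs in the cortex and Cyp51 in the cerebellum, while both intervals of Sqle spanned 0.

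Whether the genotype difference itself depended on the region was asked with the interaction, the cortical minus the cerebellar LFC. None of the 7 genes was called (limma), and none had an unadjusted p under 0.05; no member was called by edgeR or DESeq2 either. Over all tested genes 8.15% were called. The interaction ran from -0.21 in Insig1 (95% interval -0.56 to 0.14) to 0.05 in Fdft1 (-0.32 to 0.41). For Hmgcs1 it was -0.10 (-0.35 to 0.15). These intervals are wider than the genotype differences themselves, so the calls in the cortex are not shown to be particular to it.

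Between regions, 5 of the 7 genes were higher in WT cortex than in WT cerebellum, where 31.0% of all genes were higher. The cerebellar libraries belong to a dataset published earlier, so region and dataset cannot be told apart in these values. Fdft1 and Hmgcs1 had the largest differences, with an LFC of 1.05 ± 0.12 (SE) and 1.01 ± 0.08, followed by Sqle with 0.67 ± 0.07. Dhcr7 (0.35 ± 0.08) and Cyp51 (0.28 ± 0.07) differed less. Idi1 and Insig1 were not called, at 0.11 (adjusted p = 0.243, limma) and -0.02 (0.906). In SCA1 KI mice the same 5 genes were higher in the cortex, where 32.0% of all genes were, with Hmgcs1 at 0.90 and Fdft1 at 1.10.

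Per kilobase of exon, which allows levels to be compared between genes, Hmgcs1 was the most abundant of the 7 in WT cortex, at 3265 ± 349 normalized counts (SD, n = 3). Insig1 (1037 ± 149), Fdft1 (794 ± 98.8) and Cyp51 (727 ± 51.3) followed, and neighbours in that order overlapped. Sqle (482 ± 28.5), Dhcr7 (240 ± 12.9) and Idi1 (180 ± 12.8) were lower and separate from each other. In WT cerebellum the order was Hmgcs1 (1624 ± 155), Insig1 (1049 ± 147), Cyp51 (599 ± 31.6), Fdft1 (383 ± 47.7), Sqle (303 ± 17.4), Dhcr7 (189 ± 12.5) and Idi1 (167 ± 10.3). Only Dhcr7 and Idi1 overlapped there.

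The libraries of one group moved in part together. WT cerebellum library 2 was above its group mean in 7 of 7 genes, by 0.08 to 0.19 on the log2 scale, and WT cortex library B was below in 6 of 7. Over the 21 pairs of genes, Pearson's r across the 12 libraries had a median of 0.70 (-0.20 to 0.97), and with group means subtracted a median of 0.48 (-0.10 to 0.89). These are descriptions: the libraries share size factors, and the spread between regions carries much of the first value. The genes outside the 7 that were most like their mean pattern over the 12 libraries were Hapln1 (r = 0.98), Bmp2 (0.97), Atpaf1 (0.97), Nipa1 (0.97) and Hfe2 (0.97), and with group means subtracted Zfp964 (0.97), Grb10 (0.94), Myoc (0.94), Klhdc8a (0.93) and Nipa1 (0.93).

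**Figure D3:**
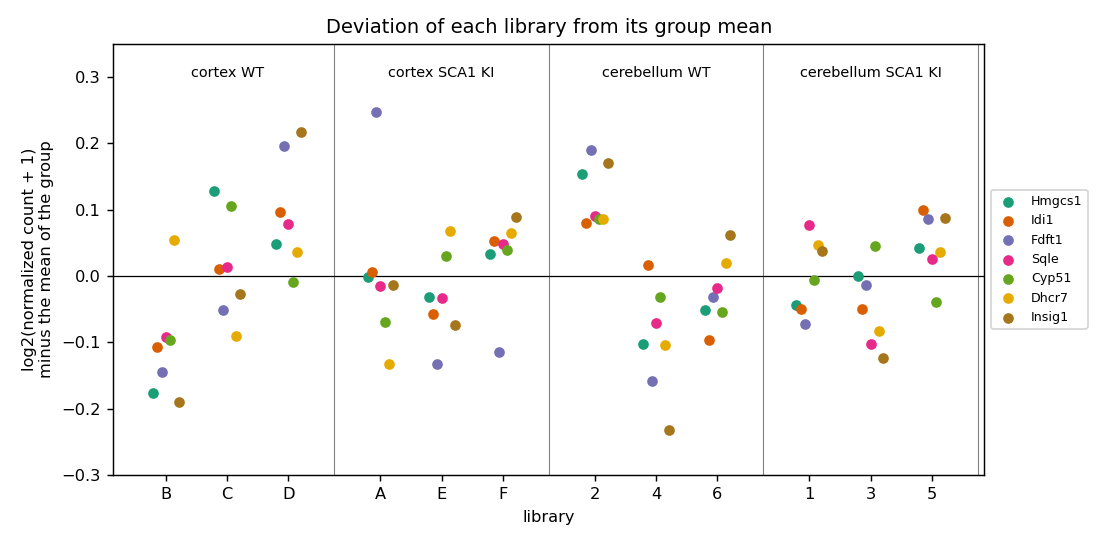
Deviation of each library from its group mean (y axis, log2 scale) for the 7 genes (colours), by library. All 7 points of WT cerebellum library 2 lay above 0, and in SCA1 KI cortex library A Fdft1 stood alone at 0.25.

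Of 19 enzymes of the route, which include each of the 7 genes but Insig1, 4 fell in the cortex and none rose. Over all tested genes 10.8% were called lower there. The LFC was below 0 in 16 of the 19, against 50.5% of all genes, with a median of -0.18. The list was chosen with earlier results of these data known. Beside the genes already given, Hmgcs1, Idi1 and Cyp51, the only enzyme called was Hsd17b7, a sterol ketoreductase. It had 1268, 1448 and 1324 normalized counts in WT cortex and 1105, 1178 and 1060 in SCA1 KI cortex. The groups did not overlap, and the LFC was -0.27 ± 0.07 (SE) with an adjusted p of 0.0191 (limma). The call was lost with the cortex fitted alone (adjusted p = 0.0865, limma) and without WT library C (LFC -0.22) or SCA1 KI library F (-0.24). In the cerebellum Hsd17b7 was at 0.06 ± 0.07.

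In the cerebellum, where 4.44% of all tested genes were called lower, 2 of the 19 enzymes fell and none rose. The LFC was below 0 in 14, against 51.3% of all genes, with a median of -0.11. The 2 called were Cyp51 and Msmo1, the C4-methyl sterol oxidase. Msmo1 had 2527, 1971 and 2066 normalized counts in WT cerebellum and 1669, 1634 and 1607 in SCA1 KI, without overlap, and an LFC of -0.41 ± 0.10 (SE). Without WT cerebellum library 2 neither was called, with an LFC of -0.30 for Msmo1 (adjusted p = 0.121, limma). The Msmo1 call was also lost without SCA1 KI library 1, 3 or 5 or WT library 6 (adjusted p 0.0591 to 0.110, limma). In the cortex Msmo1 was at -0.20 ± 0.10 and was not called.

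**Figure D4:**
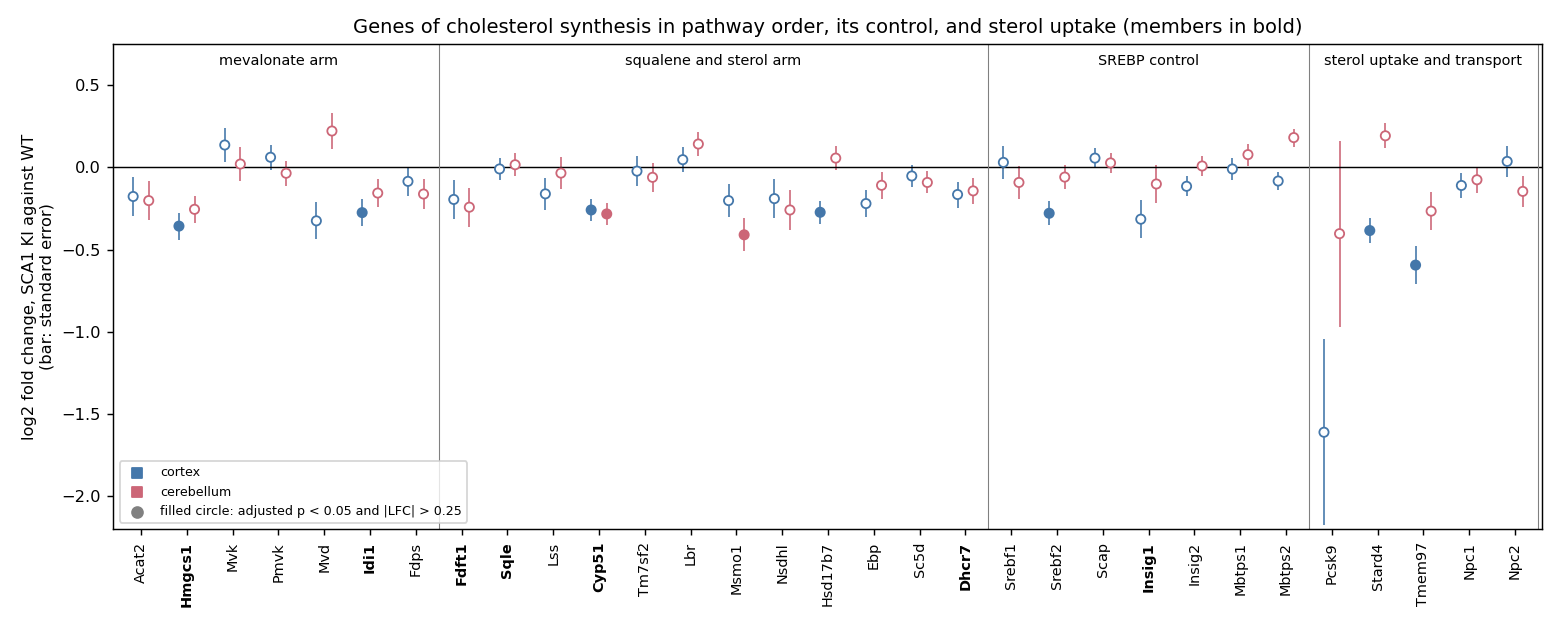
LFC (y axis, log2 scale) of SCA1 KI against WT for the enzymes in pathway order, the SREBP control genes and sterol uptake genes, in both regions; bars are SE and filled circles are DEGs. Filled circles lay below 0 in each list, and Sqle lay near 0 in both regions.

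Among the 7 genes that control SREBP, 1 fell in the cortex and none in the cerebellum, against 10.8% and 4.44% of all tested genes. Srebf2 had 10380, 9649 and 8931 normalized counts in WT cortex and 7111, 8453 and 8326 in SCA1 KI cortex. The groups were separate, with an LFC of -0.28 ± 0.07 (SE) and an adjusted p of 0.0188 (limma), but removing the dependence on length and GC of transcripts left -0.11 (0.116). The call was also lost with the cortex fitted alone (0.0937, limma) and without SCA1 KI library A (0.0542) or WT library B (0.0716) or C (0.0549). Srebf1, which drives fatty acid genes, was at 0.03 ± 0.10, Scap at 0.06 ± 0.06 and Insig2 at -0.11 ± 0.06. In the cerebellum these 4 genes lay between -0.09 and 0.03.

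Of 5 genes of sterol uptake and transport, 2 fell in the cortex and none in the cerebellum, against 10.8% and 4.44% of all tested genes. Tmem97, a sterol-responsive membrane protein that binds NPC1, had an LFC of -0.59 ± 0.12 (SE) in the cortex and -0.27 ± 0.12 in the cerebellum. Stard4, a carrier of cholesterol between membranes, had 1010, 1161 and 1140 normalized counts in WT cortex and 839, 829 and 864 in SCA1 KI cortex, an LFC of -0.38 ± 0.08. Its cerebellar LFC was 0.19 ± 0.08 and was not called.

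Genes of efflux and turnover gave 1 DEG in each direction among 10 tested in the cortex. Over all tested genes 10.8% were called lower and 4.82% higher there. Cyp46a1, the neuronal hydroxylase that clears cholesterol from the brain, fell in both regions, with an LFC of -0.39 ± 0.08 (SE) in each. Cyp27a1, another sterol hydroxylase, rose in the cortex by an LFC of 0.61 ± 0.15, although the libraries overlapped. That call was lost with the cortex fitted alone (adjusted p = 0.0981, limma) and without WT library C (0.0692) or D (0.0535) or SCA1 KI library F (0.0611). Of 10 fatty acid genes 4 fell in the cortex, where 10.8% of all tested genes were called lower. They were Fads1 (-0.35 ± 0.07), Fads2 (-0.32 ± 0.07), Acss2 (-0.26 ± 0.05) and Fasn (-0.36 ± 0.09). Fasn, fatty acid synthase, was at -0.09 (adjusted p = 0.312, limma) with the length and GC trend removed, and its call was lost with the cortex fitted alone (0.0527) and without WT library B (0.0580). The call of Acss2, an acetyl-CoA synthetase, was lost with edgeR (LFC -0.25, inside the limit), with the cortex fitted alone (adjusted p = 0.0520, limma) and without WT library C (LFC -0.24). Fads1 and Fads2, the desaturases of long-chain fatty acids, fell in the cerebellum too, at -0.33 ± 0.07 and -0.34 ± 0.07. Both cerebellar calls were lost with the trend removed (LFC -0.23 for Fads1 and -0.22 for Fads2) and without SCA1 KI library 1 or 3 (adjusted p 0.0545 to 0.100, limma), and that of Fads2 also without WT library 2 (0.0735) or 6 (0.0504). None of the 7 genes of the isoprenoid branches was called by limma in either region, and 1 of them had an unadjusted p under 0.05 in the cortex.

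Markers of some cell types differed between genotypes, and those of others were not called. Over all tested genes, 10.8% were called lower in the cortex and 4.44% in the cerebellum. In the cortex 6 of 9 astrocyte markers fell and all 9 were below 0 (median LFC -0.48), with a summed level of 267837 to 276151 in WT and 131471 to 196233 in SCA1 KI. Oligodendrocyte markers had no call among 10 there (median 0.02, limma; none at an unadjusted p under 0.05), with sums of 83961 to 143065 and 90286 to 104468. Cortical excitatory neuron markers had 3 of 7 called lower and all 7 below 0 (median -0.40), with sums of 88378 to 90282 in WT and 59382 to 70325 in SCA1 KI. Of the 6 markers on the Purkinje cell list, 5 were lower in the cortex (median -0.66; sums of 61434 to 65844 and 36025 to 43388). In the cerebellum 1 of 9 astrocyte markers fell and all 9 were below 0, 5 of them without overlap (median -0.27; sums of 172055 to 186990 in WT and 154419 to 159275 in SCA1 KI). There 2 of 10 oligodendrocyte markers fell, and all 10 were lower without overlap (median -0.48), with sums of 188326 to 281144 in WT and 159904 to 160984 in SCA1 KI. All 6 Purkinje cell markers (1 called, median -0.295) and all 7 microglia markers (1 called, median -0.198) were below 0 in the cerebellum. All 5 granule cell markers were above 0 there, without a call (median 0.224). In the cortex none of the 7 microglia markers was called (median -0.0775). All 6 oligodendrocyte precursor markers were below 0 in the cortex (1 called, median -0.234) and in the cerebellum (0 called, median -0.228). Of the 6 endothelial markers all were below 0 in the cortex (median -0.178) and 4 in the cerebellum (median -0.104), with 0 called in either. The interaction was called lower for 2 of the 9 astrocyte markers, against 751 of all 15369 tested genes. Of the 10 oligodendrocyte markers 0 were called in either direction, and 4 had an unadjusted p under 0.05 (limma). WT cerebellum library 2, in which all 7 genes were above the WT mean, had the highest cerebellar sums of astrocyte and oligodendrocyte markers. Among the WT cerebellar libraries it had the lowest sums of Purkinje cell (343138) and granule cell (107543) markers. The part of these markers in the differences of the 7 genes was not tested, and in whole tissue fewer cells of a type and less RNA per cell cannot be told apart.

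**Figure D5:**
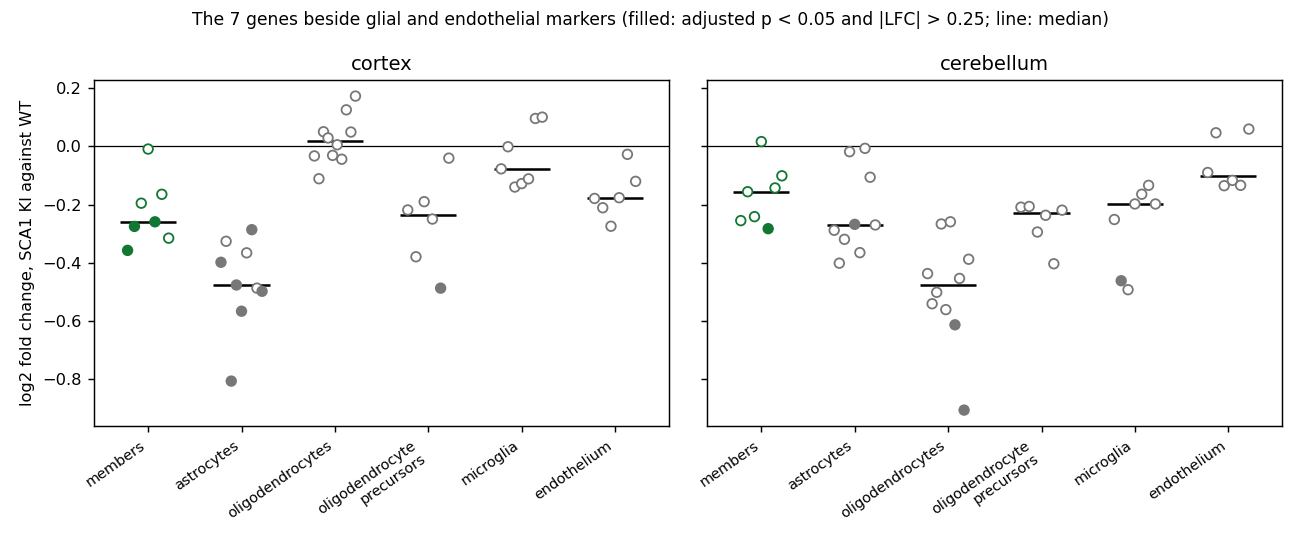
LFC (y axis, log2 scale) of SCA1 KI against WT for the 7 genes and for markers of 5 cell types in each region; points are genes, filled if DEGs, and lines are medians. Astrocyte markers were all below 0 in the cortex (median -0.48) and the cerebellum (median -0.27), and oligodendrocyte markers all below 0 in the cerebellum (median -0.48).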

How the data were processed

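Poly-adenylated RNA of whole cortex and cerebellum was analysed in 12 libraries, 3 per group. The authors sequenced paired ends, aligned with STAR to mm10, counted with featureCounts and normalized with DESeq2 (versions not given in the sources used here); the deposited signal is the read count of a gene over that library's size factor. In each library 100% of values were whole reads within 0.05, and these were recovered as counts for the count tools. The columns name group but no replicate of the labels.

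The 390 genes with a mean under 10 were left out. limma 3.58.1 (R 4.3.3; empirical Bayes, trend) was fitted on log2(normalized count + 1) with 4 group means. This scale understates changes of low genes. Recovered reads were fitted with edgeR 4.0.16 and DESeq2 1.42.0 as alternatives: edgeR called 1630 genes lower and 842 higher in the cortex, and 721 and 145 in the cerebellum. DESeq2 called 1842 and 816, and 919 and 231, and limma 1661 and 741, and 683 and 141. The fits were also run on simulated counts with changes set in the cortex alone. The outcome is not given and is not used as support here. Intervals are 95% limma intervals. Annotation was GENCODE vM21 (GRCm38), exon lengths were unions of exons, and near copies were searched with blastn 2.17.0.

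Genes named were the 7 genes, Srebf1, Srebf2, Scap and Insig2 whatever their result, genes of the pathway lists called in either region (at most 4 per list and region for efflux, fatty acids and isoprenoids) and the 5 genes of most similar pattern. Me1, called in the interaction alone, was named after its values were seen. Some genes of these pathways were left out of the lists and are not reported here. The members and lists were chosen with earlier results of these data known. Alternatives were the pseudocount, filter, centring, a length and GC trend, the LFC limit, each region alone and each library left out.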

Additional observations from a re-analysis of the deposited data

Results flagged for a closer look

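The effect of genotype differed between the regions for 3 genes of the pathway lists, by the interaction test (limma). Over all tested genes 8.15% were called in that test. The calls were 1 of 5 genes of uptake, 1 of 10 of efflux and 1 of 10 fatty acid genes. There were 0 among the 7 mevalonate, 12 sterol arm, 7 SREBP control and 7 isoprenoid genes. Region and dataset cannot be told apart in this test either. For Stard4 the cortical minus the cerebellar LFC was -0.58 ± 0.11 (SE), with an adjusted p of 0.00618; SCA1 KI libraries lay below WT in cortex but above WT in cerebellum, without overlap in either, and the call held without any 1 library (-0.65 to -0.51). For Cyp27a1 the difference was 0.94 ± 0.22 (SE), with an adjusted p of 0.0180. Its 3 SCA1 KI cerebellar libraries (434, 464 and 430 normalized counts) lay below WT (576, 542 and 556), and its cortical level was far lower, at 111, 76.4 and 78.6 in WT and 139, 109 and 156 in SCA1 KI. The Cyp27a1 call was lost without SCA1 KI cerebellum library 1 (adjusted p = 0.0506, limma) or WT cortex library C (0.0505). For Me1, the malic enzyme that supplies NADPH for lipid synthesis, the difference was 0.381 ± 0.0939 (SE), with an adjusted p of 0.0251 (limma). Neither region was called on its own: the 3 SCA1 KI libraries lay above WT in the cortex (LFC 0.20, adjusted p = 0.0550, limma) and below WT in the cerebellum (LFC -0.18, 0.163). The Me1 call was lost with the length and GC trend removed (LFC 0.28) and in 4 of the 12 fits that left out a library, those without SCA1 KI cerebellum library 1 or 5 or WT cerebellum library 2 or 6 (adjusted p 0.0501 to 0.0772, limma).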

How the results depend on the processing

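No paired analysis was possible because the library columns carry no replicate number of the labels. In the cortex 3 of the 7 genes were lower: 0 with an LFC limit of 0.5, 1 with the cortex fitted alone, 2 with edgeR, 4 with DESeq2 or with the length and GC trend removed, and 1 (without SCA1 KI library A or WT library C) to 4 (without WT library B) when a library was left out. Of the 19 enzymes 4 were lower: 0 with that limit, 1 with the cortex fitted alone, and 1 to 4 when a library was left out. In the cerebellum 1 of the 7 was lower: 0 with the length and GC trend removed or the limit of 0.5, 2 with DESeq2, and 0 to 2 when a library was left out. Of the enzymes 2 were lower: 1 with the trend removed, which also gave 1 higher, 0 with the limit of 0.5, and 0 to 3 when a library was left out. In the interaction 0 enzymes were lower: 1 with a minimum mean of 100 or median centring, 2 with the trend removed or DESeq2, and 0 to 1 when a library was left out. Between regions the 5 higher genes became 3 with the limit of 0.5 in either genotype, and 3 higher and 1 lower in SCA1 KI with the trend removed. The cause was not tested.

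Signs reversed only for LFC values near 0. In the cortex Sqle was 0.0309 with the trend removed, 0.00637 with edgeR and -0.0553 to 0.0297 when a library was left out, and Srebf1 was -0.0708 to 0.1. In the cerebellum, removing the trend gave 0.0232 for Srebf1, 0.0455 for Srebf2 and 0.0386 for Acss2. That setting also moved the median LFC of all genes there from -0.00486 to 0.0751. Leaving out a library gave -0.0225 to 0.067 for Sqle, -0.0141 to 0.0548 for Scap and -0.00333 to 0.0277 for Insig2. The Fdft1 interaction was -0.0107 with the trend removed and -0.0774 to 0.144 when a library was left out. Between regions Insig1 in WT was 0.00101 with median centring and -0.133 to 0.0787 when a library was left out, and Idi1 in SCA1 KI was -0.031 to 0.0447. With 3 libraries per group, the calls of Idi1 and Cyp51, and of several other genes of the lists, depended on single libraries. No scaling moved the median LFC of all genes beyond 0.1.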
